A study of Canis lupus familiaris with 23 samples.

Results

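Canine osteosarcoma was set against normal canine liver on the same type of expression array. The comparison used 17 of the 23 arrays of the series, namely 15 primary osteosarcomas and 2 normal livers, chosen by the tissue and type that the submitters gave each sample. The tumors came from pet dogs at surgery, before chemotherapy, and the livers came from research-colony dogs and were treated as separate biological samples. The labels give no treatment for either group, and no breed, sex or age was used here. The other arrays were 2 kidneys, 2 lymph nodes and 2 osteosarcoma cell lines. No normal bone was analysed here, and the liver served as an unrelated organ and not as the tissue of origin. Every difference below is the tumor mean minus the liver mean on the log2 scale, so that 1 unit is a 2-fold change. Such differences are given with their standard error (SE). A gene was called at an adjusted p under 0.01 in limma, with Benjamini-Hochberg adjustment over all 23836 probe sets.

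The liver is built mainly of hepatocytes, epithelial cells that make most plasma proteins and clotting factors, assemble lipoproteins and bile, clear drugs, and turn amino acid nitrogen into urea. Its resident macrophages, the Kupffer cells, line the sinusoids. Osteosarcoma is a mesenchymal tumor whose cells lay down bone matrix, made chiefly of type I collagen with small collagens, proteoglycans and phosphoproteins around it. Osteoclasts, the multinucleate cells that resorb bone, often lie among the tumor cells.

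The tumors resembled each other far more than they resembled liver. Across all probe sets the Pearson correlation averaged 0.939 between tumors (105 pairs) and 0.802 between tumor and liver (30 pairs), and it was 0.943 for the 2 livers. The array medians were 4.79 to 4.95 in the tumors, against 4.86 and 4.87 in the livers. The actin and Gapdh controls, read near either end of the transcript, gave a mean 3′ minus 5′ difference of 3.15 to 4.70 in 7 tumors and 5.96 in liver 1, arrays with low 5′ signal, and of -0.32 to 0.80 in the other 8 tumors and 0.72 in liver 2. Each class therefore held tumors and 1 liver. Tumor 5 stood apart from the other tumors in genes of fat and muscle, described further down.

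Of the 23836 probe sets, 816 were higher (3.42%) and 1396 lower (5.86%) in the tumors than in liver. Among the 6540 genes with a name, each read from 1 probe set, 398 were higher (6.09%) and 505 lower (7.72%), and the median difference over all genes was 0.10. The genes lower in tumors had the larger differences: 88 of them fell by more than 5 log2 units, which is over 32-fold, against 14 of the higher genes that rose by as much. In 726 genes (11.1%) all 15 tumors lay above both livers, and in 615 genes (9.40%) all lay below. With liver 2 alone as the comparison, 379 probe sets were higher and 1029 lower, and with liver 1 alone 269 and 964. Among the 7 tumors and liver 1 with low 5′ signal, 271 were higher and 824 lower, and among the 8 tumors and liver 2 with full signal 330 and 978. In these 4 fits the lone liver was assumed to vary like the samples of the other groups, and an arm of 1 also lowers the power of the test. In such bulk tissue, fewer cells of a type and less RNA per cell cannot be told apart.

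Type I collagen gave the largest excess of the tumors. COL1A1, the main chain of bone collagen, was at 9.58 to 13.94 in the tumors (median 13.49), against 5.82 and 4.89 in the livers. The lowest tumor was still more than 3 units above the higher liver, and the difference was 7.81 ± 0.74, adjusted p = 6.73e-08. COL1A2, the partner chain, was at 12.01 to 13.82 in the tumors (median 13.61), against 8.85 and 8.15 in the livers (4.98 ± 0.43, adjusted p = 1.87e-08). The minor fibrillar collagen COL5A2, which regulates the width of type I fibrils, was at 9.67 to 12.50 in the tumors (median 11.84), against 5.20 and 4.84 in the livers (6.53 ± 0.52, adjusted p = 5.12e-09). Another COL5A2 probe set was called higher (3.06 ± 0.60), and those that differed by 1.20 and 0.08 were not called. COL1A1 was also higher in the tumors by 7.56 against kidney and 7.16 against lymph node, comparisons that share the same tumors.

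Of 16 collagen genes measured, 9 were higher and 0 lower in the tumors, with a median difference of 2.99 beside 0.10 over all genes. The others that rose were COL5A1 by 4.72, COL3A1, the collagen of soft connective tissue, by 4.62, the fibril-associated COL12A1 by 6.27, and the basement membrane collagens COL4A1 by 3.38, COL4A2 by 2.89 and COL15A1 by 3.09. In all 9 the 15 tumors lay above both livers. COL12A1 ran from 5.39 to 12.73 in the tumors, against 4.23 and 3.81 in the livers, and its call was lost without either liver, each left out in turn. COL3A1 lost its call without liver 1 and in the mean of its probe sets. Its other probe sets, higher by 0.82 to 3.34, were not called. The cartilage collagen COL2A1 differed by -0.04 ± 0.16 and was not called. Another COL2A1 probe set, not called either, was at 4.15 to 11.37 in the tumors (median 4.94), against 4.34 and 4.80 in the livers (1.66 ± 1.53). Among the arrays with low 5′ signal alone, 4 of the collagens were called.

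**Figure D1:**
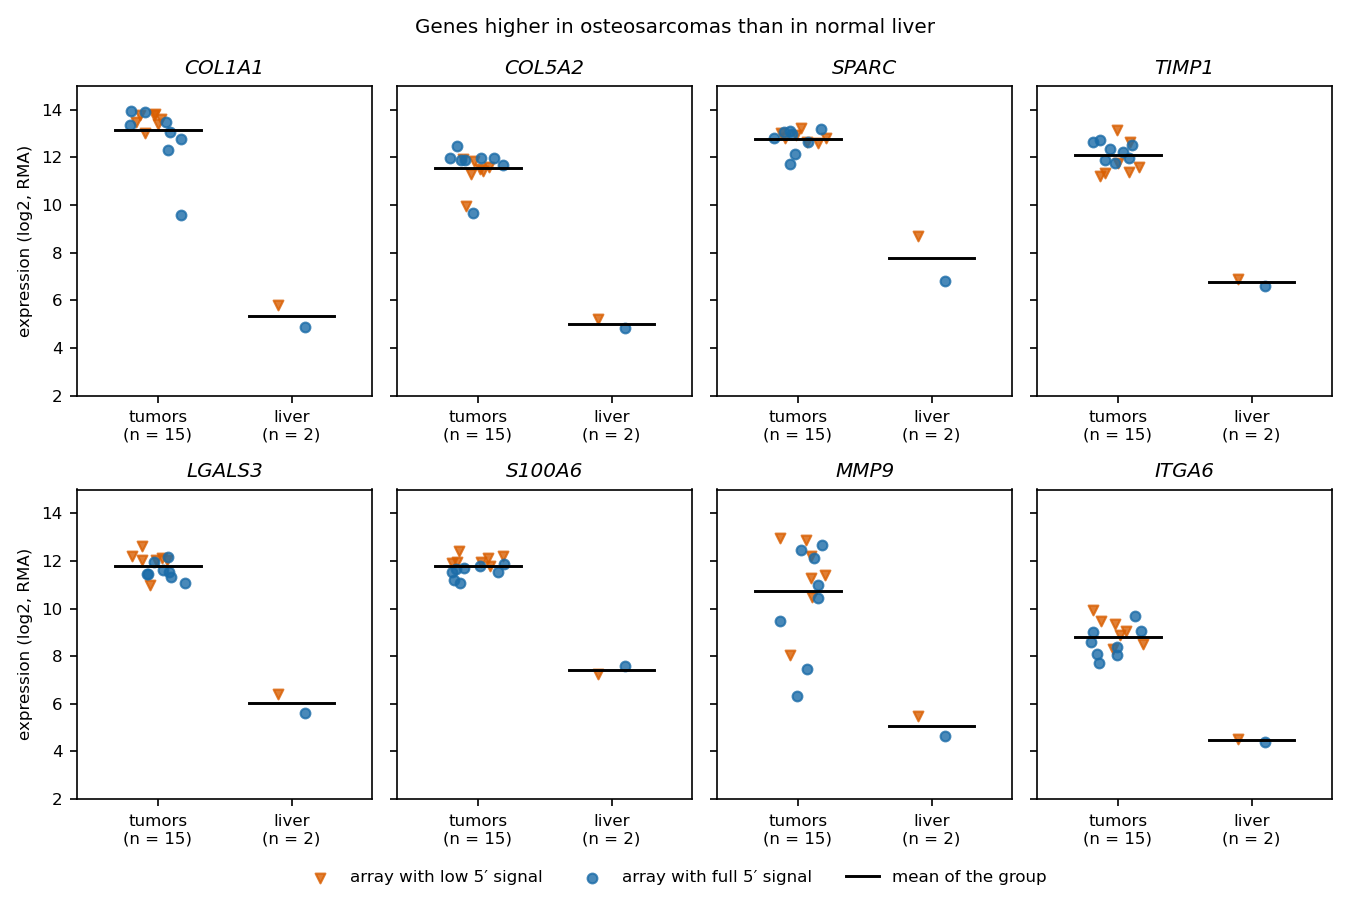
Expression (log2, RMA) of 8 genes in the 15 tumors, at the left of each panel, and the 2 livers, at the right; each point is 1 array, its shape and colour give the class of 5′ signal and the black line is the mean of the group. All tumors lie above both livers in each panel, with the narrowest spread for S100A6 (SD 0.35) and the widest for MMP9 (SD 2.08).

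Of 9 genes whose products finish and cross-link collagen 5 were higher and 0 lower, with a median of 2.06. SERPINH1, the chaperone that escorts procollagen through the endoplasmic reticulum (ER), was at 9.81 to 12.80 in the tumors (median 11.36), against 8.07 and 7.81 in the livers (3.49 ± 0.52, adjusted p = 4.18e-05). PCOLCE, which speeds the removal of the procollagen end, was higher by 4.97 ± 0.55, the prolyl hydroxylase P4HA2 by 3.93 ± 0.71, the lysyl oxidase LOXL2 by 3.77 ± 0.66 and P3H4, a cofactor of lysine hydroxylation, by 1.84 ± 0.44. In all 5 the tumors lay above both livers. Without liver 1, 3 of them were called, and without liver 2, 2 were. PCOLCE and SERPINH1 kept their calls in both cases. Among the arrays with low 5′ signal alone 2 of the 9 were called, and among those with full signal 1 was.

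Glycoproteins and proteoglycans of the matrix were higher in 8 and lower in 1 of 31 genes, with a median of 2.18. Dermatopontin, DPT, which binds decorin and collagen, was at 8.49 to 12.23 in the tumors (median 10.86), against 5.45 and 5.15 in the livers (5.39 ± 0.88, adjusted p = 0.000137). Laminin alpha 4, LAMA4, of vessel and muscle basement membranes, was higher by 5.37 ± 0.59, but its 6 other probe sets differed by 0.05 to 2.74 and none of those was called. CCN2, connective tissue growth factor, was higher by 4.87 ± 0.72, CCDC80 by 4.64 ± 0.62, and the small proteoglycan decorin, DCN, by 3.86 ± 0.57. The exception was EMILIN1, an elastic fiber glycoprotein, at 5.45 to 7.70 in the tumors (median 6.59), against 10.63 and 10.72 in the livers (-4.10 ± 0.44, adjusted p = 6.07e-07). Among the arrays with low 5′ signal alone, which hold 1 liver, DPT, CCN2, CCDC80 and DCN were not called. FBN1, another of the higher genes, was not called in the mean of its probe sets, without either liver, or when any 1 of 4 tumors was left out. Fibronectin, FN1, which hepatocytes secrete into plasma and mesenchymal cells into matrix, was at 11.37 to 12.97 in the tumors (median 12.47), against 12.43 and 12.49 in the livers, a difference of -0.07 with a 95% confidence interval of -0.87 to 0.73. Liver exceeded kidney and lymph node by 4.49 ± 0.44 for this gene (adjusted p = 1.99e-07).

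Proteases and protease inhibitors of the matrix gave 7 higher and 0 lower of 17 genes, with a median of 2.28, and 4 were higher without either liver. TIMP1, an inhibitor of metalloproteinases, was at 11.23 to 13.14 in the tumors (median 11.98), against 6.89 and 6.61 in the livers (5.33 ± 0.41, adjusted p = 2.85e-09). TFPI2, a secreted inhibitor of serine proteases, was at 7.75 to 11.65 in the tumors (median 10.59), against 5.01 and 4.48 in the livers (5.82 ± 0.71, adjusted p = 3.35e-06). The gelatinase MMP2 was higher by 4.09 ± 0.58 and the serine protease HTRA1 by 3.18 ± 0.51. Both osteoclast proteases rose as well. Cathepsin K, CTSK, the enzyme with which osteoclasts degrade bone collagen, was at 9.34 to 12.90 in the tumors (median 11.78), against 8.24 and 8.30 in the livers (3.50 ± 0.62, adjusted p = 0.000323). Another CTSK probe set was not called (2.10 ± 0.77, adjusted p = 0.0768). MMP9, the gelatinase of osteoclasts and neutrophils, varied widely, at 6.31 to 12.98 in the tumors (median 11.27), against 5.50 and 4.67 in the livers (5.67 ± 1.34, adjusted p = 0.00521). The MMP9 call was lost in a fit of the 17 tumor and liver arrays alone and in the mean of its probe sets. CTSK and MMP9 were each not called without liver 1 and not called without liver 2, and HTRA1 was not called without liver 1. These 2 were the called genes of 10 in the osteoclast list, where the median was 0.95, and the proton pump subunit ATP6V0D2, at 3.69 to 10.22 in the tumors (median 7.59), against 3.39 and 3.58 in the livers, was not called (adjusted p = 0.075).

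Markers of the osteoblast were called in part. Osteonectin, SPARC, which binds collagen and calcium, was at 11.71 to 13.23 in the tumors (median 12.83), against 8.70 and 6.82 in the livers (5.02 ± 0.45, adjusted p = 3.03e-08). Osteopontin, SPP1, a phosphoprotein of bone that bile duct cells also make, was at 9.91 to 12.15 in the tumors (median 11.23), against 9.32 and 7.23 in the livers (2.86 ± 0.63, adjusted p = 0.00272), and it was not called without liver 2. The osteogenic growth factor BMP2 was higher by 2.62 ± 0.66 (adjusted p = 0.00855), a call lost without either liver and when any 1 of 8 tumors was left out. The bone alkaline phosphatase ALPL, at 3.98 to 8.79 in the tumors (median 5.04), against 4.82 and 4.12 in the livers, the osteoblast transcription factor RUNX2, at 4.49 to 5.76 in the tumors (median 4.66), against 4.65 and 4.26 in the livers, and osteocalcin, BGLAP, at 4.58 to 6.40 in the tumors (median 5.66), against 6.27 and 5.55 in the livers, were not called. BGLAP had another probe set at 3.80 to 10.35 in the tumors, against 4.49 and 4.55 in the livers, which was not called either. Of 9 osteoblast and bone mineral genes measured, 3 were higher and 0 lower, with a median of 2.02, and 1 was called without liver 2.

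Genes of the cytoskeleton and of the calcium-binding and annexin proteins of mesenchymal cells were higher in 23 of 31 and lower in 0, with a median of 2.68. All 15 tumors exceeded both livers in 25 of the 31, and in 11.1% of all genes. Galectin 3, LGALS3, a lectin that binds galactosides, was at 11.01 to 12.64 in the tumors (median 11.97), against 6.43 and 5.62 in the livers (5.76 ± 0.45, adjusted p = 3.6e-09). S100A6 was at 11.09 to 12.42 in the tumors (median 11.79), against 7.23 and 7.57 in the livers (4.38 ± 0.24, adjusted p = 1.05e-11). The actin-binding peptide TMSB10 rose by 4.49 ± 0.28, galectin 1, LGALS1, by 4.41 ± 0.42, the microtubule-associated MAP1B by 4.92 ± 0.58 and the annexin partner S100A10 by 4.14 ± 0.35. The intermediate filament vimentin, VIM, was higher by 2.75 ± 0.17. Smooth muscle genes of the same list did not pass, with differences of 1.32 for ACTA2 and 0.27 for TAGLN. Without the arrays of low 5′ signal 15 of the 31 were called.

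For some of these genes liver was also below the other organs. Whether liver itself differed from the mean of kidney and lymph node was tested in the same model, which also tests whether the tumor difference against liver differs from the mean of those against the other 2 organs. Liver was higher in 284 genes (4.34%) and lower in 153 (2.34%). Over probe sets it was higher in 759 and lower in 373, against 499 and 263 among the 6 organ samples with replicate number as a block. Without liver 1, 214 probe sets were lower, and without liver 2, 125. LGALS3 was lower in liver, by a difference of -2.86 ± 0.52 (adjusted p = 0.000789), the tetraspanin CD9 by -3.03 ± 0.58 (0.00135), TMSB10 by -2.58 ± 0.32 (5.68e-06) and the laminin receptor subunit ITGA6 by -4.03 ± 0.55 (2.19e-05). The excess of CD9 in tumors was 5.51 against liver, 1.31 against kidney and 3.66 against lymph node. For ITGA6, at 7.73 to 9.93 in the tumors (median 8.89), against 4.52 and 4.40 in the livers, the differences were 4.35, -0.44 and 1.09. Ezrin, EZR, which links actin to the membrane, differed by 2.38 against liver (7.89e-05), but by -0.51 against kidney and -0.67 against lymph node, neither of them called. For COL1A1 and COL5A2 the liver minus other organs values were -0.45 ± 0.85 and 0.10 ± 0.60, neither called.

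Others of the 15 largest rises followed. PDGFRL, a receptor-like protein, was at 8.60 to 12.33 in the tumors (median 10.24), against 4.86 and 3.69 in the livers (6.14 ± 0.77, adjusted p = 4.49e-06), but its probe sets disagreed: 1 other was higher by 2.24, and 2 others were lower, by differences of -0.56 and -1.92, all called, which occurred in no other gene. GPX8, a peroxidase of the ER, was at 8.95 to 11.57 in the tumors (median 11.10), against 5.18 and 4.99 in the livers (5.79 ± 0.46, adjusted p = 3.52e-09). The retinoid-responsive membrane protein RARRES1 was higher by 5.17 ± 0.59 and CD9 by 5.51 ± 0.51.

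Genes of cell division gave 5 higher and 0 lower of 20, with a median of 1.21, but without liver 2 none of the 5 remained called, and without liver 1 there were 2. The microtubule regulator STMN1 was at 8.19 to 11.36 in the tumors (median 10.58), against 8.15 and 5.88 in the livers (3.18 ± 0.66, adjusted p = 0.00156), the replication clamp PCNA at 8.08 to 10.26 in the tumors (median 9.17), against 7.52 and 6.56 in the livers (2.20 ± 0.41, adjusted p = 0.000512), and the centromeric histone CENPA at 4.38 to 9.45 in the tumors (median 7.85), against 5.23 and 3.78 in the livers (3.30 ± 0.83, adjusted p = 0.00874). KIF23 and HMGB2 were the others called, and in CENPA and HMGB2 1 tumor lay between the livers. CENPA was also not called when any 1 of 12 tumors was left out, HMGB2 when any 1 of 8 was, and KIF23 when tumor 2 was, and neither KIF23 nor HMGB2 was called without either liver. The differences against lymph node, an organ with dividing lymphocytes, were -1.34 for STMN1, -0.64 for PCNA and -0.22 for CENPA.

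Genes of the secretory pathway were called at a share near the 6.09% of all genes that were higher. In 32 genes of ER translocation, folding and glycosylation 3 were higher, 0 lower, and the median was 0.70. SEC61A1, the channel through which secreted proteins enter the ER, was higher by 1.62 ± 0.40, and the associated SSR2 and SSR4 by 1.52 and 1.06. Transport from ER to Golgi gave 3 higher and 1 lower of 29, the retrieval receptors KDELR2 and KDELR3 at 1.38 and 1.77, the coat protein SEC31A at 1.15, and MCFD2, a cargo receptor for clotting factors, at -1.16. All 6 higher genes of these lists lost their calls without either liver, SEC61A1 also when any 1 of 8 tumors was left out, and MCFD2 lost its call without liver 2. Ribosomal protein genes had a median of 0.43, and RPL7A led with 1.95 ± 0.24. Of 62 such genes, 10 were higher and 0 lower, a larger share than the 6.09% over all genes. That count was 3 without liver 1 and 5 without liver 2. Mitochondrial respiratory chain genes gave 0 higher and 3 lower of 50, a share no larger than the 7.72% of all genes that were lower. These were SDHB by -1.75, SDHD by -1.19 and UQCR11 by -1.06, and the median of the list was -0.35. SDHD and UQCR11 were not called without either liver, SDHD also when any 1 of 7 tumors was left out, and SDHB was not called without liver 1.

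Genes discussed as candidates in osteosarcoma were called in either direction. Of 13 measured, TFPI2 and EZR were higher and the drug efflux pump ABCB1 was lower. Over all genes 6.09% were higher and 7.72% lower. ABCB1, which hepatocytes place on the bile canaliculus, was at 2.88 to 4.20 in the tumors (median 3.32), against 9.88 and 10.03 in the livers (-6.53 ± 0.48, adjusted p = 1.39e-09), so the highest tumor was more than 5 units below the lower liver. The glutamate transporter SLC1A3 was at 5.60 to 10.09 in the tumors (median 7.80), against 3.79 and 4.32 in the livers, with every tumor above both livers, but it missed the threshold (3.53 ± 0.96, adjusted p = 0.0149). The chemokine CXCL8 ran from 4.13 to 12.76 in the tumors, against 3.86 and 4.25 in the livers, and was not called (adjusted p = 0.178). The receptor genes ERBB2 and KIT differed by 0.01 ± 0.19 and 0.08 ± 0.26, and the tumor suppressor RB1 by 0.90 ± 0.73. None of 19 cytokines and chemokines was called. IL6 spanned 3.29 to 12.29 in the tumors (median 5.05), against 3.56 and 3.60 in the livers.

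Several genes with large mean differences missed the threshold, with tumors that ran from near the liver level to far above it. The Wnt inhibitor WIF1 was at 4.09 to 13.24 in the tumors (median 10.95), against 3.53 and 3.55 in the livers (difference 6.38 ± 1.72, adjusted p = 0.0137), the growth factor PTN at 3.18 to 11.65 in the tumors (median 8.46), against 2.87 and 2.81 in the livers (5.42 ± 1.53, adjusted p = 0.0186) and the matrix protein THBS2 at 3.81 to 12.87 in the tumors (median 9.82), against 4.63 and 4.03 in the livers (4.88 ± 1.64, adjusted p = 0.0511). These 3 were chosen after their values were seen.

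Plasma proteins made up the other end of the comparison. Of 19 transport proteins of plasma measured, 15 were lower in the tumors and 0 higher, with a median of -5.30. All 15 tumors lay below both livers in 16 of them, and in 9.40% of all genes. Albumin, ALB, the most abundant plasma protein, was at 3.23 to 3.61 in the tumors (median 3.45), against 13.22 and 13.22 in the livers (-9.80 ± 0.13, adjusted p = 5.22e-23). ALB was at 3.75 and 3.88 in kidney and at 4.12 and 3.37 in lymph node, and since the tumors lie at the low end of the array no fold is given. The vitamin D carrier GC was at 2.95 to 3.26 in the tumors (median 3.04), against 12.39 and 12.48 in the livers (-9.37 ± 0.08, adjusted p = 1.85e-25). The heme carrier hemopexin, HPX, was lower, by a difference of -6.85 ± 0.21, afamin, AFM, a carrier of vitamin E, by -7.23 ± 0.12, ITIH1, which stabilizes hyaluronan, by -7.25 ± 0.42 and fetuin B, FETUB, by -7.19 ± 0.17. For ALB and GC the tumors differed from kidney by -0.40 and 0.02 and from lymph node by -0.33 and -0.04, and liver exceeded those organs by 9.44 and 9.36.

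**Figure D2:**
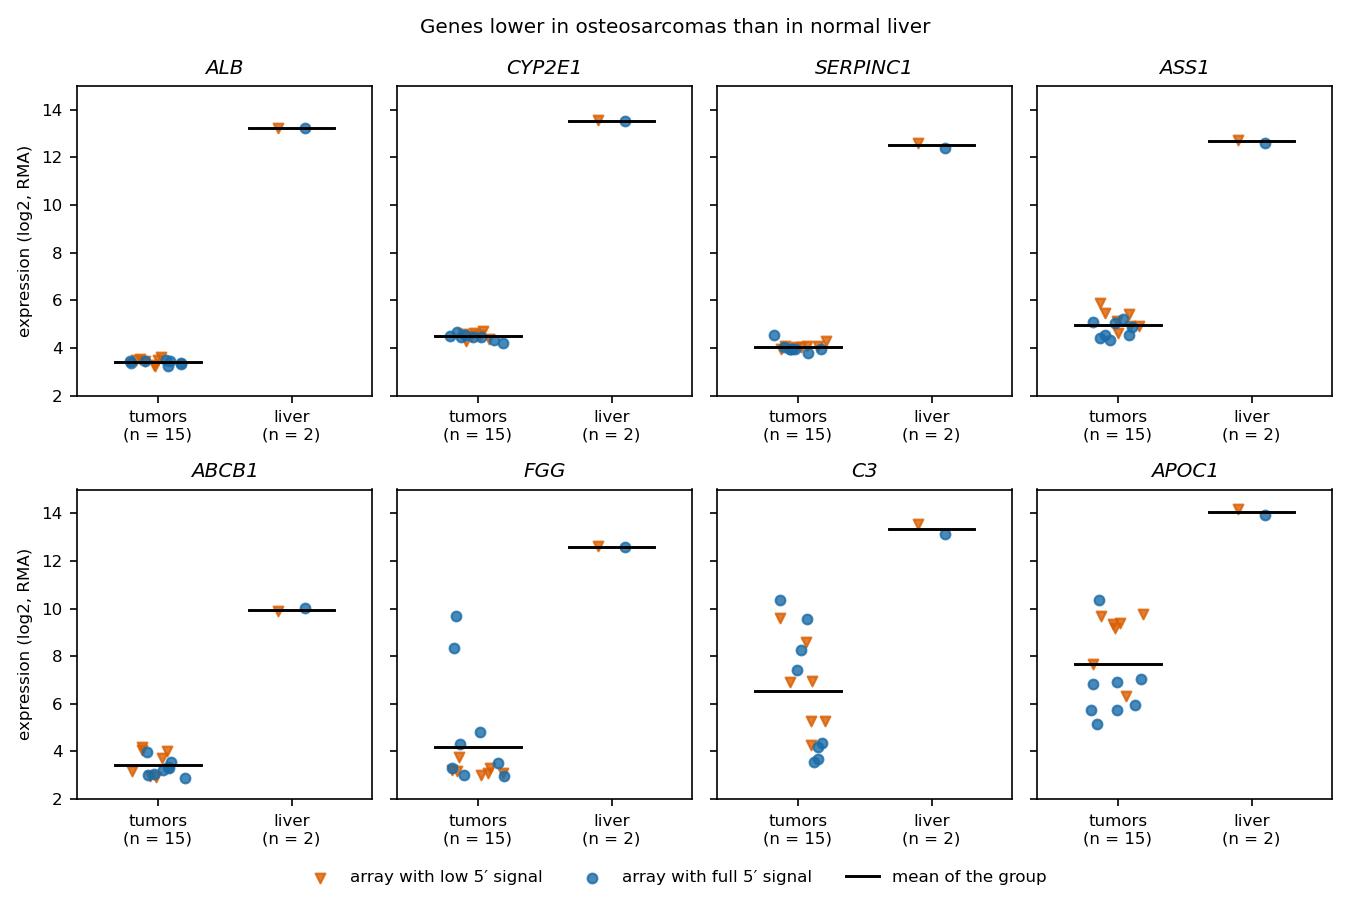
Expression (log2, RMA) of 8 genes in the 15 tumors, at the left of each panel, and the 2 livers, at the right; each point is 1 array, its shape and colour give the class of 5′ signal and the black line is the mean of the group. ALB, CYP2E1, SERPINC1, ASS1 and ABCB1 lie close together over the tumors, whereas FGG is high in 2 tumors and C3 and APOC1 run over more than 5 units.

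Clotting and complement followed. Of 21 coagulation and fibrinolysis genes 16 were lower and 0 higher, with a median of -5.13. Antithrombin, SERPINC1, the main inhibitor of thrombin, was at 3.78 to 4.54 in the tumors (median 4.02), against 12.63 and 12.40 in the livers (-8.47 ± 0.14, adjusted p = 2.49e-21). Kininogen, KNG1, was lower, by a difference of -8.51 ± 0.14, factor X, F10, by -7.98 ± 0.10, the fibrinogen alpha chain FGA by -7.67 ± 0.14 and vitronectin, VTN, by -7.06 ± 0.20. Of 17 complement and acute phase genes 12 were lower and 0 higher, with a median of -2.92, and 7 were lower with either liver left out. The terminal component C6 was at 3.04 to 6.83 in the tumors (median 3.24), against 11.02 and 11.57 in the livers (-7.65 ± 0.66, adjusted p = 1.45e-08). The iron hormone hepcidin, HAMP, was lower, by a difference of -6.15 ± 0.14, the chemotactic hepatokine LECT2 by -5.23 ± 0.14 and the inhibitor SERPINA3 by -5.16 ± 0.22. For C6 the tumors were also below kidney (-4.71) and lymph node (-5.35).

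Apolipoproteins were lower in 11 of 16 genes, with 0 higher and a median of -2.43. APOC3, which slows the clearance of triglyceride-rich particles, was at 4.24 to 4.86 in the tumors (median 4.51), against 11.78 and 10.60 in the livers (-6.68 ± 0.21, adjusted p = 3.18e-16). The sterol exporter ABCG8 was lower, by a difference of -4.78 ± 0.15, hepatic lipase, LIPC, by -4.70 ± 0.57, APOA2 by -3.67 ± 0.18 and APOF by -4.25 ± 0.15. Another APOA2 probe set, also called, differed more, at 3.39 to 3.72 in the tumors, against 13.02 and 13.07 in the livers (-9.45 ± 0.08). APOC1, which macrophages also make, was at 5.16 to 10.38 in the tumors (median 7.04), against 14.17 and 13.95 in the livers (-6.39 ± 1.13, adjusted p = 0.000345), and its call was lost without either liver.

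Bile and drug handling showed the same direction. Bile acid genes were lower in 11 of 13, with a median of -3.02. SLC10A1, the transporter that takes bile acids up from blood, was at 4.20 to 4.80 in the tumors (median 4.45), against 11.36 and 11.29 in the livers (-6.87 ± 0.13, adjusted p = 3.16e-20). SLC27A5, which joins bile acids to coenzyme A, was lower, by a difference of -7.01 ± 0.27, and the canalicular pumps ABCB4 and ABCC2 by -5.41 ± 0.68 and -4.32 ± 0.16. Other ABCC2 probe sets differed less, by -2.45, which was called, and by -1.73 and -0.28, which were not. Cytochrome P450 and other oxidizing enzymes were lower in 20 of 26, with a median of -3.42. CYP2E1, which oxidizes ethanol and small solvents, was at 4.19 to 4.72 in the tumors (median 4.49), against 13.56 and 13.52 in the livers (-9.06 ± 0.11, adjusted p = 2.29e-23). The flavin monooxygenase FMO1 was lower, by a difference of -7.15 ± 0.24, the drug-oxidizing CYP1A2 by -6.40 ± 0.27, the canine CYP2D15 by -6.39 ± 0.32, and retinal dehydrogenase, ALDH1A1, by -7.07 ± 0.63. Conjugating and detoxifying enzymes were lower in 10 of 15, with a median of -2.71, led by the glucuronosyltransferase UGT1A6 at 3.51 to 4.39 in the tumors (median 3.76), against 12.29 and 11.11 in the livers (-7.93 ± 0.36, adjusted p = 3.14e-13). MGST1, a membrane glutathione transferase, varied from 3.96 to 10.05 in the tumors, against 11.49 and 11.70 in the livers, and was not called without either liver.

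Amino acid metabolism was lower along several routes. Of 36 genes of the urea cycle and amino acid breakdown 24 were lower and 0 higher, with a median of -2.61. Argininosuccinate synthase, ASS1, the urea cycle enzyme that takes in aspartate, was at 4.34 to 5.89 in the tumors (median 4.93), against 12.73 and 12.63 in the livers (-7.72 ± 0.30, adjusted p = 1.69e-14). Homogentisate dioxygenase, HGD, of tyrosine breakdown was lower, by a difference of -6.81 ± 0.22, tryptophan dioxygenase, TDO2, by -6.54 ± 0.11, AASS of lysine breakdown by -5.98 ± 0.31 and glycolate oxidase, HAO1, by -7.52 ± 0.11. One-carbon and sulfur metabolism gave 14 lower and 1 higher of 20, with a median of -2.58. BHMT, which remakes methionine from homocysteine with betaine, was at 3.28 to 3.93 in the tumors (median 3.54), against 12.66 and 12.58 in the livers (-9.07 ± 0.26, adjusted p = 9.98e-17), and GNMT, which spends methyl groups on glycine, was lower, by a difference of -5.99 ± 0.38. The gene that rose was the cytosolic glutathione peroxidase GPX1 (1.15 ± 0.27, adjusted p = 0.00528), a call lost without either liver. Its plasma relative GPX3 was lower, by a difference of -5.63 ± 0.27 against liver and by -7.23 against kidney.

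Carbohydrate and lipid metabolism had smaller medians. Genes of gluconeogenesis, glycogen and hexose handling gave 11 lower and 1 higher of 18, with a median of -2.01 and 7 lower without liver 2. Fructose bisphosphatase, FBP1, the control step of gluconeogenesis, was at 4.70 to 9.56 in the tumors (median 5.25), against 12.61 and 12.11 in the livers (-6.60 ± 0.85, adjusted p = 6.68e-06), glycogen phosphorylase of liver, PYGL, was lower, by a difference of -3.69 ± 0.61 (not called without liver 2) and the glucose transporter SLC2A2 by -2.59 ± 0.12. Aldose reductase, AKR1B1, was higher by 1.85 ± 0.31, and was not called without liver 1. Fatty acid oxidation, peroxisome and ketone body genes were lower in 17 of 28, with a median of -1.90 and 11 lower without liver 2, and SLC27A2, which activates very long chain fatty acids, led them at 3.07 to 3.72 in the tumors (median 3.15), against 11.31 and 10.95 in the livers (-7.92 ± 0.27, adjusted p = 1.74e-15). The peroxisomal thiolase ACAA1 was lower, by a difference of -4.10 ± 0.33 and the ketone body enzyme BDH1 by -3.23 ± 0.34. Lipid and cholesterol synthesis gave 7 lower of 22, with a median of -1.23 and 3 lower without liver 2, among them the glucose-sensing transcription factor MLXIPL at -4.16 ± 0.24 and squalene synthase, FDFT1, at -2.16 ± 0.33.

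Kidney makes many of these enzymes as well. For the plasma transport list the median tumor difference was -5.30 against liver, 0.00 against kidney and 0.03 against lymph node. For the urea cycle and amino acid list it was -2.61, -1.34 and -0.03, and for conjugation and detoxification -2.71, -2.64 and 0.15, in the same order of organs. Against kidney 239 genes were higher (3.65%) and 470 lower (7.19%) in the tumors, and against lymph node 165 were higher (2.52%) and 224 lower (3.43%). BHMT, SLC27A2 and FBP1 were lower, by differences of -6.63, -6.46 and -7.78 against kidney, but differed by 0.05, 0.05 and 0.17 against lymph node.

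Nuclear receptors and other factors that control hepatocyte genes were covered by 9 probe sets, of which 4 were lower and 0 higher. The bile acid receptor NR1H4 was at 3.71 to 4.15 in the tumors (median 3.96), against 10.01 and 10.82 in the livers (-6.47 ± 0.36, adjusted p = 1.14e-11). The lipid-regulating CREB3L3 was lower, by a difference of -3.07 ± 0.23, the pioneer factor FOXA2 by -2.37 ± 0.22 and the oxysterol receptor NR1H3 by -2.13 ± 0.20. Solute carriers of hepatocytes were lower in 10 of 14, with a median of -2.70, iron, heme, copper and selenium genes in 7 of 21 with 2 higher, and retinoid and vitamin genes in 9 of 15. Ceruloplasmin, CP, the copper carrier of plasma, was at 3.74 to 5.94 in the tumors (median 4.54), against 9.84 and 11.62 in the livers (-6.13 ± 0.60, adjusted p = 1.19e-07). Regucalcin, RGN, an enzyme of vitamin C synthesis in the dog, was lower, by a difference of -7.38 ± 0.27.

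Cell types other than hepatocytes separated more by gene than by list. Epithelial junction and bile duct genes were lower in 6 of 14 and higher in 0. The keratins KRT18 and KRT8, which hepatocytes carry as well as ducts, were lower, by differences of -6.03 ± 0.34 and -2.12 ± 0.24, the gap junction protein GJB1 by -5.61 ± 0.13, and the epithelial adhesion molecule EPCAM was at 3.03 to 3.99 in the tumors (median 3.43), against 9.32 and 8.50 in the livers (-5.44 ± 0.31, adjusted p = 1.8e-11). Of 20 macrophage and myeloid genes 3 were lower and 0 higher, with a median of -0.27, and 1 was lower without liver 1. The Kupffer cell proteins CD5L and MARCO, both scavenger receptor family members, were at 4.79 to 7.63 in the tumors (median 5.40), against 10.99 and 9.01 in the livers (-4.50 ± 0.56, adjusted p = 4.68e-06) and at 4.35 to 8.30 in the tumors (median 5.14), against 9.50 and 8.50 in the livers (-3.56 ± 0.71, adjusted p = 0.00119). MARCO lost its call without either liver. The other lower gene of the macrophage and myeloid list, AIF1, lost its call without liver 1 and among the arrays with full 5′ signal. Of the fixed macrophage markers, CD68, CD14, CSF1R and CD163 were not called. Their differences were 1.33 ± 0.96, -0.51 ± 0.41, -0.48 ± 0.80 and -2.06 ± 0.95, and in these 4 the groups overlapped. The complement gene C1QA, also made by macrophages, was at 5.37 to 9.43 in the tumors (median 7.42), against 9.84 and 9.64 in the livers (-2.12 ± 0.72, adjusted p = 0.0551). All its tumors lay below both livers, and it was not called. Among 8 endothelial, 9 lymphocyte, 11 MHC class II and 24 skeletal muscle genes none was called against liver. Over all genes 6.09% were higher and 7.72% lower, and lists this short would hold few calls at those shares. The vessel genes PECAM1 and VWF differed by -0.76 ± 0.78 and 1.46 ± 0.60, and the T cell gene CD3E by 0.02 ± 0.30.

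**Figure D3:**
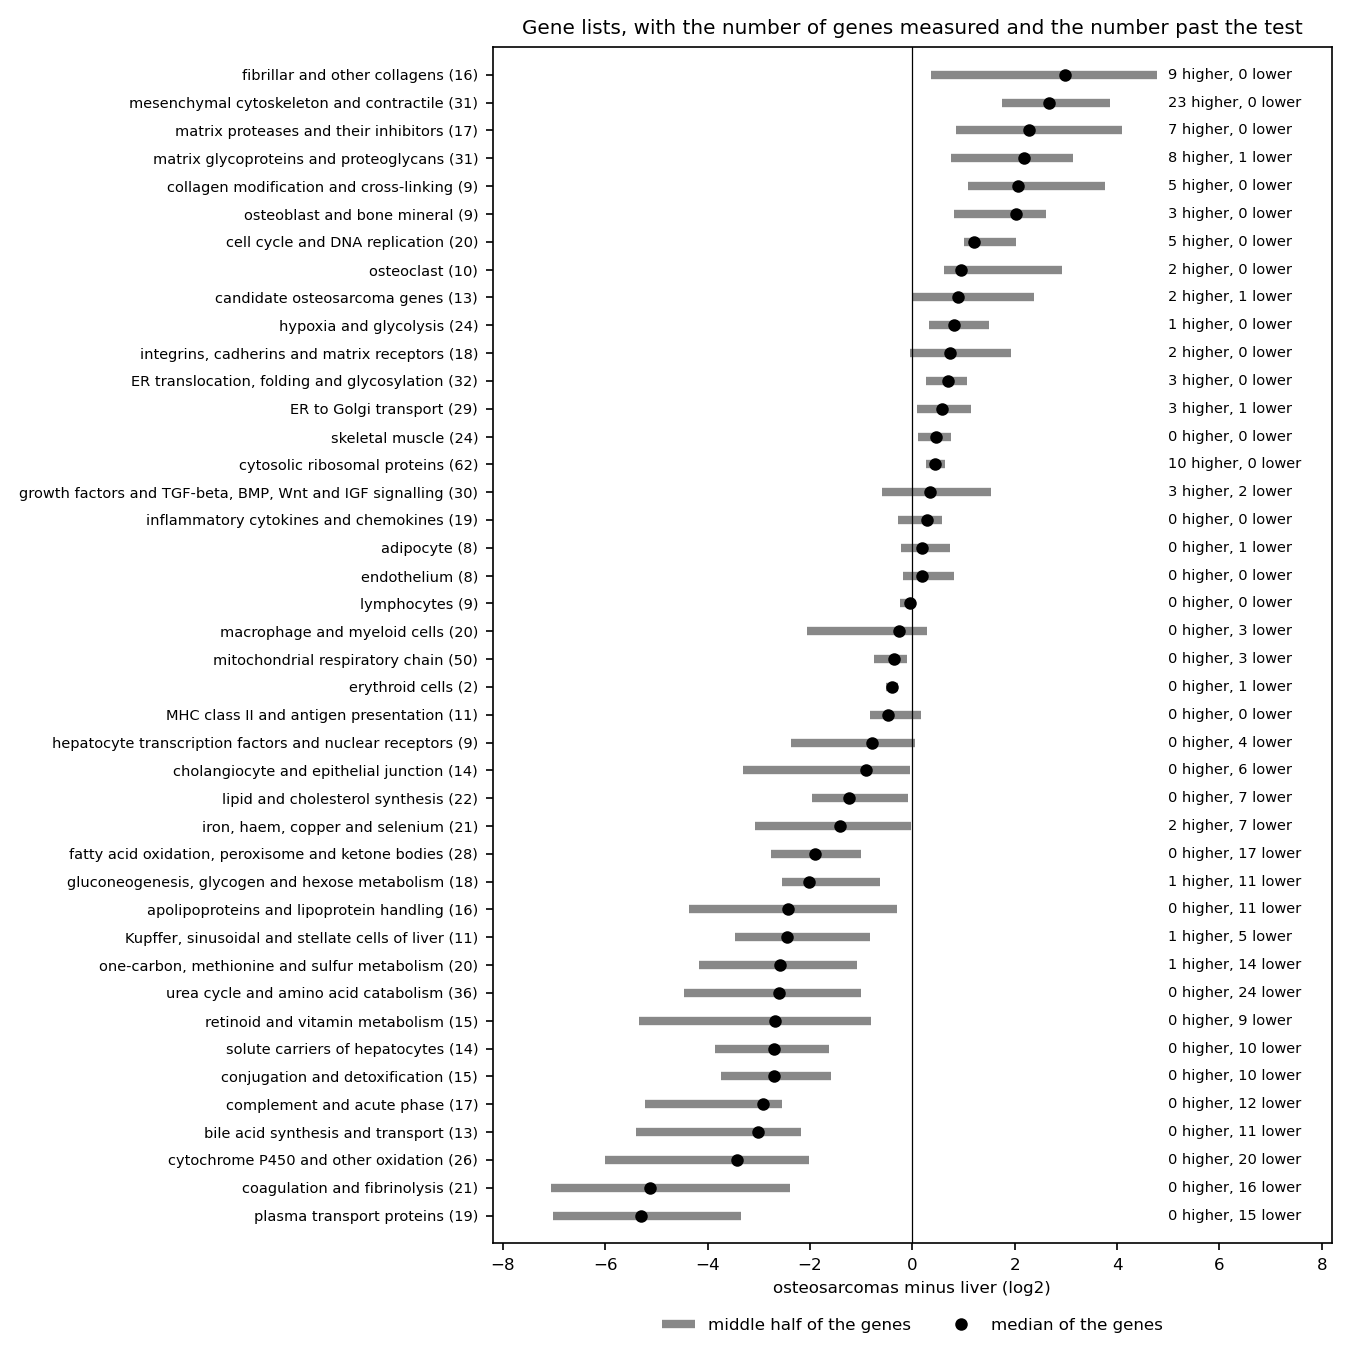
Tumor minus liver difference (log2) for 42 gene lists, with the number of genes measured in brackets; the point is the median of the genes, the grey bar their interquartile range, and the text at the right counts the genes called in each direction. The list medians run from 2.99 for collagens, at the top, to -5.30 for plasma transport proteins, at the bottom.

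A few tumors carried single liver-type transcripts at higher levels than the other tumors. Among 89 genes of the liver lists that were lower by more than 4 units, the median tumor level was 4.54 and the median liver level 10.84, and in 59 of them no tumor reached 6. In 8 genes at least 1 tumor exceeded the tumor median by more than 3 units. Fibrinogen gamma, FGG, was at 9.68 in tumor 6 and 8.32 in tumor 5, whereas the other 13 tumors were between 2.97 and 4.80 and the livers were at 12.62 and 12.59 (-8.43 ± 1.29, adjusted p = 6.63e-05). Complement C3, the central complement protein, was at 3.53 to 10.35 in the tumors (median 6.90), against 13.55 and 13.15 in the livers (-6.80 ± 1.49, adjusted p = 0.00281), and its call was lost without either liver. The gene listed as LOC479668, not one of the 89, was at 3.75 to 12.37 in the tumors (median 4.39), against 13.50 and 13.25 in the livers. Tumor 5 was highest in this gene, followed by tumor 8 at 10.27, tumor 11 at 8.19 and tumor 6 at 6.91. Its call too was lost without either liver.

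Tumor 5 carried 6 of the 89 genes at such levels (C6, CFI, FBP1, FGG, FGL1 and MGST1), and no other tumor carried more than 2. The same tumor was the highest of the 15 in 19 of 24 skeletal muscle genes and 7 of 8 adipocyte genes, against 8.36% of all genes. The adipocyte hormone ADIPOQ was at 10.63 in it and at 4.16 to 7.52 in the others, against 4.53 and 4.66 in the livers. The fast muscle troponin TNNT3 was at 9.15 in it and at 2.95 to 3.94 in the others, against 2.96 and 3.23 in the livers. DGAT2, which makes triglyceride in liver and fat, was at 10.04 in tumor 5, and at 5.27 to 7.95 in the others, against 10.40 and 9.93 in the livers (-3.87 ± 0.83, adjusted p = 0.00231), and was not called without either liver. The part of fat and muscle tissue in these levels was not tested. Without tumor 5, 884 probe sets were higher and 1403 lower.

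The probe set that stood for a gene decided some of the calls. Each gene was read from its brightest probe set, by the mean of all 23 arrays. Transthyretin, TTR, the thyroid hormone carrier, had a chosen probe set at 8.35 to 10.21 in the tumors (median 9.36), against 10.30 and 9.18 in the livers (-0.42 ± 0.38, adjusted p = 0.565), but its 4 other probe sets were lower in the tumors, by differences of -7.69 to -8.64, all of them called. Arginase, ARG1, the last enzyme of the urea cycle, differed by -0.61 in the chosen set and by -6.74 and -4.09 in the others. The first enzyme of the cycle, CPS1, differed by -0.27 and by -5.94 in the other set, at 3.61 to 4.38 in the tumors, against 8.36 and 11.19 in the livers. The fatty acid carrier FABP1 differed by -0.04 in the chosen set, and 1 of its 2 other sets was lower, by a difference of -4.46. In all, 106 genes without a call had another probe set with one, 71 of them lower in the tumors and 35 higher, and 25 were lower by more than 3 units. Counting a gene as called when any of its probe sets was, a choice made after seeing the data, gave 433 genes higher and 577 lower. By that count 29 of 36 urea cycle and amino acid genes were lower in place of 24, and 17 of 19 plasma transport genes in place of 15.

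**Figure D4:**
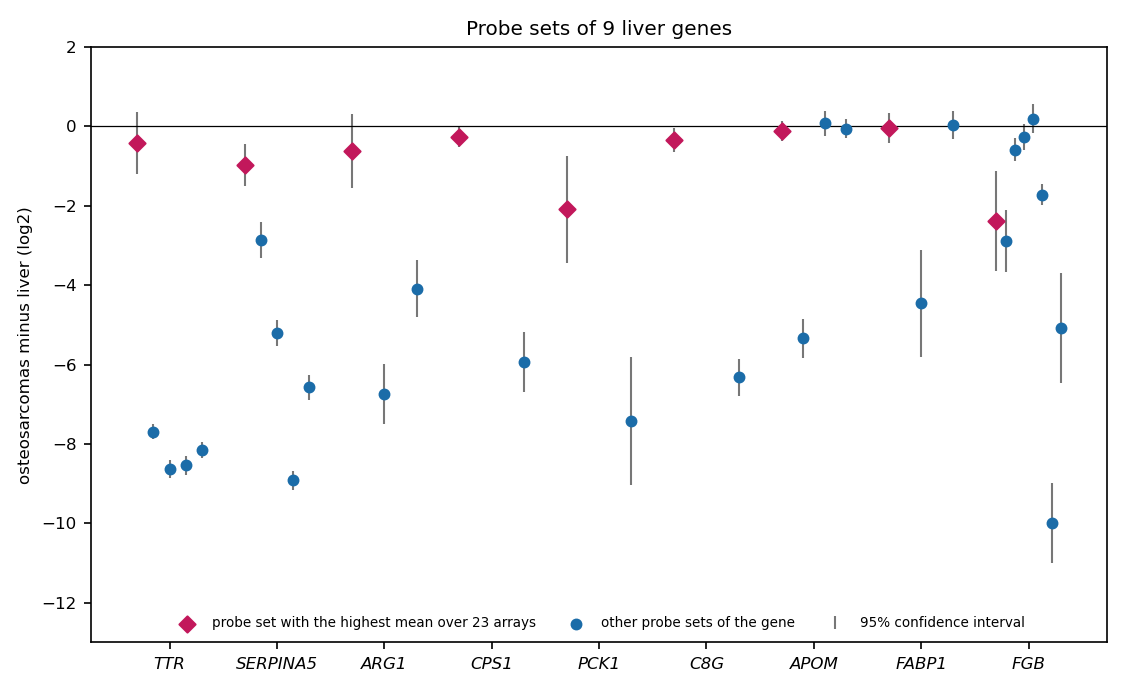
Tumor minus liver difference (log2) for every probe set of 9 liver genes, with its 95% confidence interval; diamonds mark the brightest probe set, which stood for the gene, and circles the others. TTR, SERPINA5, ARG1, CPS1, C8G, APOM and FABP1 lie within 1 unit of 0 in the chosen set and have other sets at -4 or lower.

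The 2 livers differed from each other in a limited set of genes. The median gap between them was 0.29 over all genes, and in 127 genes it was over 2 units. In 57 genes (0.872%) the tumor minus liver difference of the arrays with low 5′ signal (7 tumors and liver 1) differed from that of the arrays with full signal (8 tumors and liver 2), a test chosen after seeing the data. Each class had 1 liver, so the spread in this test came from the tumors and the 2 cell lines, and the lone liver was assumed to vary like them. Liver 2 was the higher liver in 37 of them and liver 1 in 20. Plasminogen, PLG, the precursor of the clot-dissolving plasmin, was at 3.74 to 4.28 in the tumors (median 3.95), against 5.02 and 10.65 in the livers, and the test of the difference between classes gave 5.70 (adjusted p = 2.57e-10). Complement C5 was at 3.65 to 3.93 in the tumors (median 3.79), against 3.89 and 8.97 in the livers and the gluconeogenic PCK1 at 4.61 to 5.06 in the tumors (median 4.77), against 4.77 and 8.98 in the livers, so that liver 1 was at the level of the tumors in both. The PCK1 probe set that was not chosen was at 3.14 to 6.93 in the tumors, against 10.74 and 11.76 in the livers. Fibrinogen beta, FGB, was at 7.04 to 7.89 in the tumors (median 7.24), against 7.35 and 12.07 in the livers in the chosen set, and another set read 2.93 to 3.32 in the tumors, against 13.07 and 13.19 in the livers. The call of the chosen set was lost without liver 2 and when any 1 tumor other than tumor 9 was left out.

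A control gene of the array also differed between the livers along 1 transcript. CYP2E1 has control probe sets along its length, which stood outside the tests. In liver 1 they read 11.66 at the 3′ end, 10.53 in the middle and 4.39 at the 5′ end, and in liver 2 they read 11.80, 12.51 and 11.48. The tumors were at 3.24 to 3.58, 4.75 to 5.33 and 3.78 to 4.42. The 5′ end was therefore not separated from the tumors in liver 1, whereas the 3′ end was equally high in both livers. Liver 1 was the higher liver in NNMT, which methylates nicotinamide, at 3.23 to 6.18 in the tumors (median 3.53), against 8.89 in liver 1 and a level within the tumors in liver 2, in the glutamate transporter SLC1A2, at 3.89 to 5.96 in the tumors (median 4.38), against 9.26 and 4.81 in the livers, and in IGFBP1, an insulin-regulated binding protein, at 3.31 to 4.89 in the tumors (median 3.50), against 10.47 and 6.41 in the livers. With 1 liver in each class, the 5′ signal and the animal cannot be told apart.

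**Figure D5:**
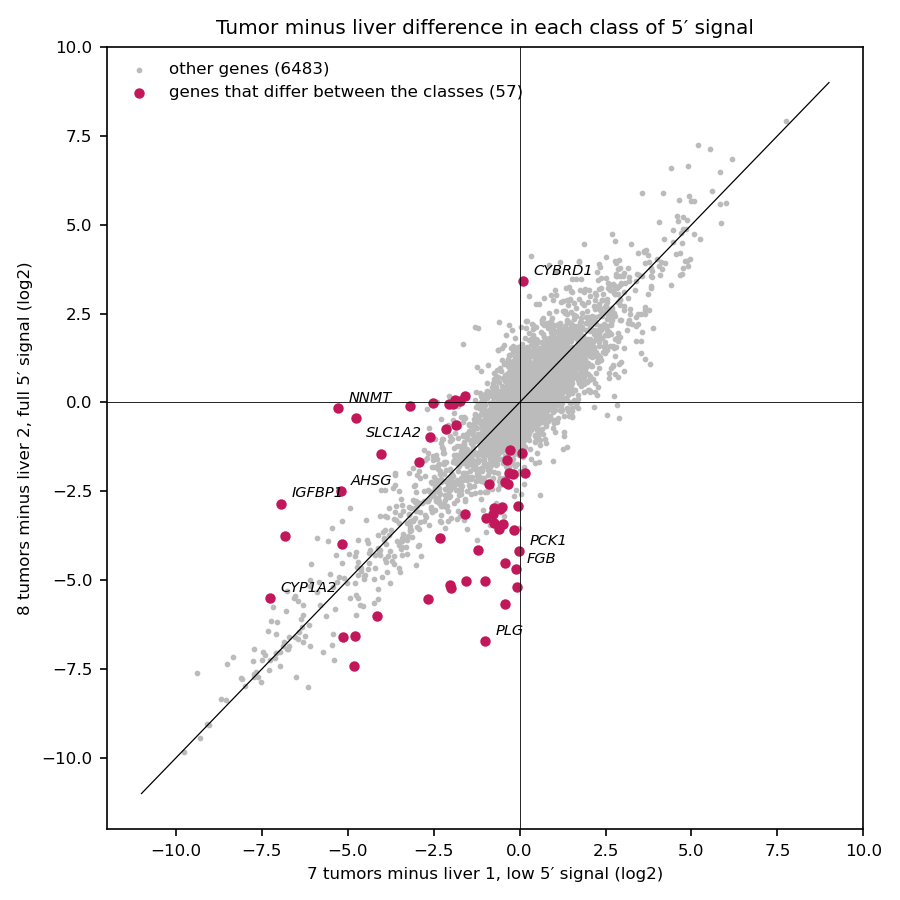
Tumor minus liver difference (log2) of each of 6540 genes among arrays with low 5′ signal (7 tumors and liver 1, x axis) and among arrays with full 5′ signal (8 tumors and liver 2, y axis), with the line of equality. The 57 coloured genes differ between the classes, and FGB and PCK1 lie near 0 on the x axis and below -4 on the y axis.

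Digestive enzymes of the pancreas were among the genes that separated the livers, and the group was chosen after its values were seen. Pancreatic lipase, PNLIP, was at 3.36 to 3.98 in the tumors (median 3.57), against 6.21 and 3.61 in the livers, its cofactor CLPS at 4.87 to 5.54 in the tumors (median 5.18), against 7.27 and 5.19 in the livers and chymotrypsinogen, CTRB2, at 4.37 to 4.91 in the tumors (median 4.49), against 6.26 and 4.49 in the livers. Lymph node 1 showed the same 3 genes above lymph node 2, PNLIP at 5.93 and 3.59, CLPS at 6.80 and 5.23 and CTRB2 at 5.74 and 4.29, and liver 1 and lymph node 1 carry the same replicate number and both have low 5′ signal. Kidney 1 has that number and low 5′ signal as well, but PNLIP was at 3.87 and 3.87 in kidneys 1 and 2, CLPS at 5.48 and 5.29 and CTRB2 at 4.95 and 4.50. In the chosen probe sets none of the 3 was called in the tumors against liver, and 1 other probe set of CTRB2 was called lower (-1.23).

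Some genes stood at nearly the same level on both sides. The 95% confidence interval lay within 1 unit of 0 in 2850 genes, or 43.6%. Among genes with a mean above 8, the interval was narrowest for the ubiquitin-conjugating enzyme CDC34 (-0.29 to 0.25), followed by the esterase IAH1, the ubiquitin ligase subunit SKP1, the mitochondrial calcium uniporter subunit SMDT1 and the magnesium transporter NIPA2. SKP1 was at 10.60 to 11.53 in the tumors (median 11.15), against 11.23 and 10.99 in the livers. IAH1 had another probe set that was called higher in the tumors (1.06 ± 0.24, adjusted p = 0.0044). Retinol-binding protein, RBP4, a plasma carrier, was at 9.44 to 13.08 in the tumors (median 11.77), against 13.57 and 13.70 in the livers (-1.87 ± 0.69, adjusted p = 0.0818). All tumors lay below both livers without passing the test, and the tumors were higher by 4.12 against kidney and 5.06 against lymph node.

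The sign of a tumor difference depended on the organ in 12 genes, 9 of them higher in tumors against liver and lower against kidney or lymph node, and 3 the other way round. The ubiquitin ligase adaptor ASB9 was at 6.57 to 8.63 in the tumors (median 7.41), against 5.63 and 5.66 in the livers, higher by 1.75 against liver and lower, by a difference of -3.35 against kidney (adjusted p = 8.75e-06). Its call against liver was lost without either liver and without tumor 11 or tumor 15. It was also lost in fits of the 17 tumor and liver arrays alone and in the mean of its probe sets. The other ASB9 probe sets differed from liver by -0.07, -0.09 and 0.78, and none of them was called. GSTO1, a glutathione transferase that also reduces arsenic compounds, was at 8.34 to 9.59 in the tumors (median 8.90), against 10.45 and 10.64 in the livers (-1.63 ± 0.27, adjusted p = 0.000161), whereas the tumors exceeded kidney by 2.39 (adjusted p = 1.49e-06). The lysosomal membrane protein LAMP2 was lower, by a difference of -0.86 against liver and higher by 1.21 against lymph node (adjusted p = 0.000343). LAMP2 was not called against liver without either liver, and GSTO1 not without liver 2.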

How the data were processed

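RNA of each sample was hybridized to an Affymetrix canine genome array. Per the submitters' processing notes, the authors used RMA in the affy package, whose versions are not given in the sources used here. The deposited values are the log2 expression values of RMA, after quantile normalization, which hides changes in total RNA. Differences of dim or very bright probe sets may be understated. Arrays give no read depth, and their number limits the precision.

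After removal of 77 control probe sets, 23836 were tested. The platform annotation named 6540 genes from 10549 probe sets with 1 symbol (138 had several, 13149 were unnamed here), and 2349 genes had several probe sets. A gene was read from its brightest probe set, by the mean of the 23 arrays. limma 3.58.1 in R 4.3.3 was fitted to all 23 arrays in 5 groups, without a replicate block, with contrasts of tumors minus liver and liver minus the mean of kidney and lymph node. The fit was tested on simulated data, drawn independently for each array from the tumor means and SDs. That test did not cover a correlation of same-numbered organ samples or an effect of the 5′ signal. The model of the study's own limma analysis is not given in the sources used here.

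The study described its canine normal tissues as biological replicates, neither pooled nor repeat assays of 1 sample. The labels do not tie the 6 organ samples to dogs, so whether same-numbered organs share a dog is not known. The replicates of an organ also differed in 5′ signal, and any technical part of the spread between them was not tested. The p-values rest on a spread pooled over all 5 groups, mostly that of the 15 tumors. They assume that the livers vary likewise. Same-numbered organ samples deviated together (r = 0.607, 0.596 and 0.530 over the 3 pairs of organs), and in every organ replicate 1 had low 5′ signal (a 3′ minus 5′ difference above 1.5).

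Genes named were the 15 largest called differences each way without overlap of groups, up to 6 called genes a direction and list, fixed cell type markers, the 5 most variable called genes, the 5 narrowest intervals around 0, and genes whose sign turned against another organ, with further members of lists named to account for them. Members and lists were chosen with earlier results of these data known. Alternatives were other sample sets, normalizations, filters and blocks, the 5′ class and each array left out.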

Additional observations from a re-analysis of the deposited data

Results flagged for a closer look

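The tumor minus liver difference among arrays with low 5′ signal minus the same difference among arrays with full 5′ signal passed its test in 24 genes of the lists and named genes. A positive value means that liver 1 was lower relative to its tumors than liver 2. It was positive for PLG (5.70), C5 (5.12), FGB (4.59), PCK1 (4.16), SLCO1B3 (4.02), ADH4 (3.48), C9 (3.11), CYP3A26 (2.94), GCKR (2.94), CYP4A11 (2.92), HAL (2.42), MTTP (2.26), DAO (2.23), CYP4A37 (1.88), TJP3 (1.81), SLCO1A2 (1.68) and CREB3L3 (1.51). It was negative for NNMT (-5.13), SLC1A2 (-4.33), IGFBP1 (-4.09), AHSG (-2.72), SULT1B1 (-2.60), CYP1A2 (-1.76) and SLC6A12 (-1.64). Each class held 1 liver, so the difference between classes rests on 2 livers.

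In 8 named genes the difference against another organ passed with the opposite sign to that against liver. The tumor difference against kidney was -3.35 for ASB9, -1.46 for NTAN1 and 2.39 for GSTO1. Against lymph node it was -2.57 for CRLF3, -1.87 for SLC66A3, -1.30 for JPT1, 1.57 for AIG1 and 1.21 for LAMP2. ASB9, NTAN1, CRLF3, SLC66A3 and JPT1 were higher in tumors against liver, and GSTO1, AIG1 and LAMP2 were lower. For each of these genes liver differed from the mean of kidney and lymph node, the largest adjusted p being 0.00199 for LAMP2. That outcome was largely fixed by choosing genes with opposite signs in the same samples, so it adds no separate evidence.

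Control probe sets outside the comparison carried signal too. The Dap spike, a bacterial RNA added before labelling, was above 6 in 5 tumors (2, 5, 6, 11 and 15), against 3.30 and 3.22 in the livers. The 5′ control probe set of CYP2E1 read 11.48 in liver 2, against 4.39 in liver 1.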

How the results depend on the processing

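The main counts were 816 probe sets higher and 1396 lower in the tumors. At an adjusted p under 0.05 1451 were higher. Restricted to low 5′ arrays the counts were 271 and 824, and among those with full signal 330 were higher. Leaving out 1 array at a time gave 269 to 884 higher and 964 to 1406 lower, and the low ends came without liver 2. With replicate number as a random replicate block they were 848 and 1377 (correlation 0.402). Liver against kidney and lymph node gave 759 probe sets higher in liver and 373 lower. With the replicate block among the 6 organ samples 499 were higher, and without 1 liver 596 to 694 were higher and 125 to 214 lower. The other settings kept these counts within 1.5 times.

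Of 207 named genes 184 were called. Across 29 alternatives 94 kept their call in each, 67 lost it without 1 of the livers, and 12 without 1 of the tumors. With low 5′ signal alone 65 lost it and with full signal 66. No called gene changed sign. Uncalled genes near 0 did: BGLAP (0.58) and CDC34 (0.18) in the mean of their probe sets, IAH1 in the low 5′ arrays (-0.24) and when 1 array was left out (-0.31 to 0.33), NIPA2 in the full 5′ arrays (-0.29) and when 1 array was left out (-0.28 to 0.31), SMDT1 in the full 5′ arrays (-0.22) and TTR when 1 array was left out (-0.98 to 0.14). The cause was not tested. The filter on dim probe sets, which removed genes under 5 in both groups, left 1 called gene out.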

Other observations

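Among 106 genes whose chosen probe set was not called although another was, some were not liver genes by name. A probe set annotated to the ribosomal protein gene RPS26 was at 2.95 to 3.30 in the tumors, against 13.37 and 13.29 in the livers, a difference of -10.22, whereas the chosen RPS26 probe set differed by 0.43. A probe set annotated to the collagen gene COL27A1 was at 3.89 to 4.51 in the tumors, against 12.67 and 13.47 in the livers (-8.95), whereas the chosen one differed by 0.30. Whether these probe sets read the genes they are annotated to was not tested.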
